A study of Mus musculus with 16 samples.

Results

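The response of p65 S534A liver to lipopolysaccharide (LPS) was measured in 8 of the 16 liver samples of the series, 4 from S534A mice given 1 mg/kg LPS and 4 from untreated S534A mice, chosen by their sample titles. S534A mice are homozygous for a knock-in allele of the gene for p65 in which the codon of a serine in the transactivation domain was changed to one for alanine. Per the labels' protocols the allele was made in PTL1 embryonic stem cells, the neomycin cassette was removed by crossing to mice expressing FLPe, and the line was backcrossed repeatedly to C57Bl6/J before it was bred to homozygosity. The other 8 samples came from wild-type (WT) C57Bl6/J mice, 4 given 1 mg/kg LPS and 4 untreated, and are used only for a shared estimate of the spread and for the closing comparison. All samples were whole liver of males. The series text gives the LPS dose for the untreated S534A group as well, and the source names of those samples state no treatment, so the word in the titles alone makes them untreated. The sources used here do not give age, the time between LPS and collection, or a vehicle. Injection, food intake and collection hour therefore cannot be told apart from LPS. Whether each sample of a group was a different animal is not in the labels, and p-values reflect sample-to-sample spread, part of which may be technical.

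The p65 protein, encoded by Rela, is the NF-kB subunit with the main transactivation domain. IkB proteins hold it in the cytoplasm until LPS, bound by CD14 and the TLR4 receptor complex, activates IkB kinase, which marks IkB for destruction and can phosphorylate p65 in that domain. In liver, TLR4 is known mainly from Kupffer cells and other non-parenchymal cells. Their TNF, interleukins and interferons act on hepatocytes, which answer with acute-phase proteins while many metabolic genes are turned down.

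The data were log2 expression values of whole-transcript arrays, and 15908 genes with a single symbol were tested. All changes below are LPS minus untreated in S534A liver in log2 units and carry the limma standard error (n = 4 arrays per group). A gene is said to rise or fall where its Benjamini-Hochberg adjusted p over the 15908 genes was under 0.05, and its level is the log2 value on an array. Levels are not set against those of other genes. The first principal component of the 8 S534A arrays held 84.9% of their variance and placed LPS arrays between −43.3 and −39.6 and untreated arrays between 40.2 and 42.8. The second held 6% and set untreated array 3 (−22.8) against untreated array 1 (15.8). The 11 measured hepatocyte markers were high on the scale. Their mean level lay between 13.19 and 13.27 in the S534A LPS arrays and between 13.23 and 13.28 in the untreated S534A arrays. The tissue label was not tested against other tissues. Values on the 16 arrays ran up to 14.54, so albumin and other very abundant transcripts lay near the top of the scale, and signal over background and saturation were not assessed.

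Rela itself rose after LPS. Its level was 11.38, 11.43, 11.37 and 11.41 in the S534A LPS arrays, against 9.92, 10.00, 9.88 and 10.13 in the untreated S534A arrays. The groups did not overlap, and the rise was 1.41 ± 0.08 (2.66-fold, limma adjusted p = 2.75e-10). Because the targeted change is a point substitution, the transcript level does not check the genotype labels.

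After LPS 7225 of the 15908 genes changed in S534A liver, which is 45.4%. Of these, 2258 were higher, 14.2% of all genes tested, and 4967 were lower, or 31.2%. The excess of falls lay among small changes: 680 genes (4.27%) rose and 677 (4.26%) fell by at least 2-fold, while at 4-fold 235 rose (1.48%) and 73 fell (0.459%), and at 16-fold 37 rose and 2 fell, Cyp7a1 and Kcnk5. The median change of all genes was −0.03, and the median size of a called change was 0.54. On 7652 genes (48.1%) the 4 LPS arrays lay all above or all below the 4 untreated arrays. With each array centred on its median the median change was −0.127, and 1703 genes rose and 6231 fell, so that 21.5% of the called genes were higher in place of 31.3%.

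**Figure D1:**
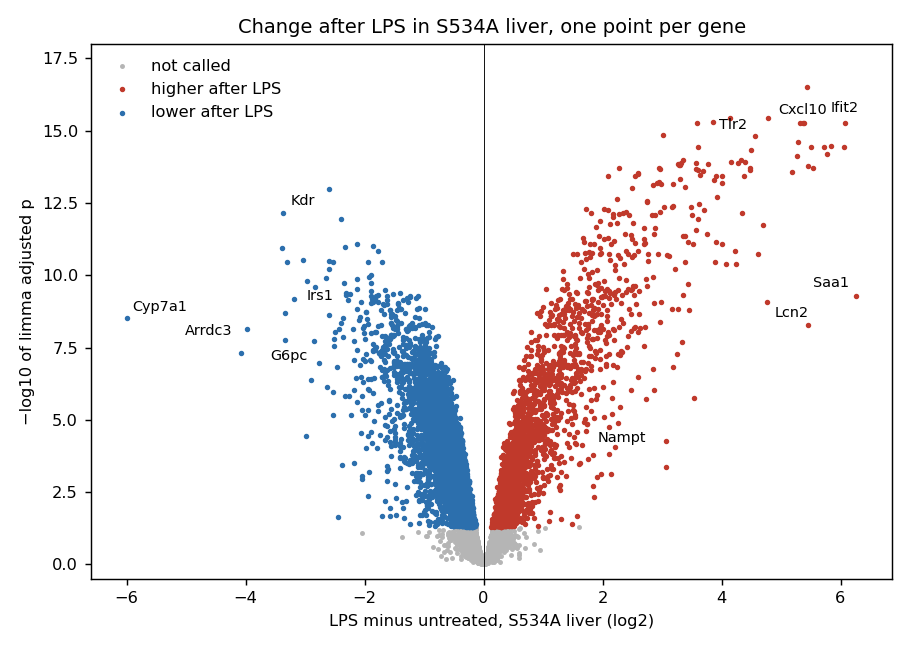
Each point is 1 of the 15908 genes. The horizontal axis is the change in S534A liver, LPS minus untreated (log2), and the vertical axis is minus log10 of the limma adjusted p. Red genes (2258) were higher after LPS, blue genes (4967) lower, and grey genes were not called. Rises reach farther from 0 than falls, with Saa1 at 6.26 and Cyp7a1 alone at −5.99.

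Genes were grouped into 58 lists, 47 of pathways and 11 of cell type markers, with 1026 of the 1170 genes listed being measured. The members called per list stand in the chart of members called by list.

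**Figure D2:**
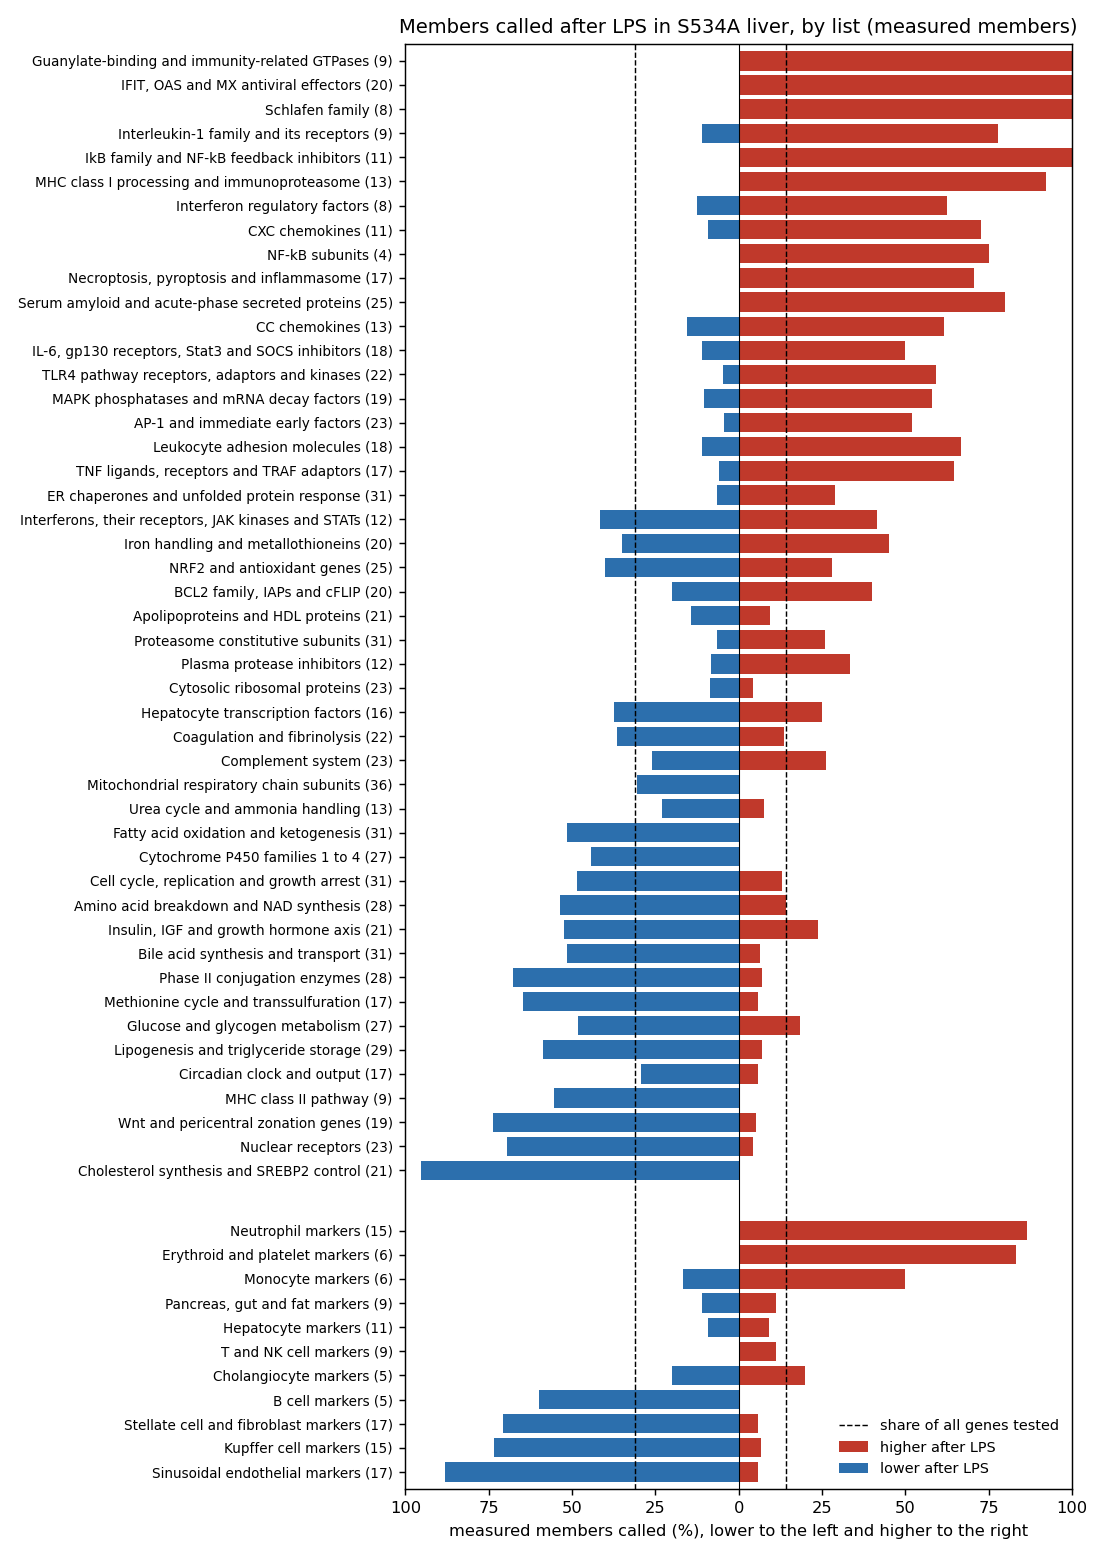
Bars give the percent of a list's measured members called higher (red, to the right) or lower (blue, to the left) after LPS in S534A liver. The number of measured members stands in brackets, the lower block holds cell type markers, and dashed lines mark the shares of all genes tested (14.2% higher, 31.2% lower). Antiviral, guanylate-binding, Schlafen and IkB lists are wholly red, and cholesterol synthesis and sinusoidal endothelial lists are nearly wholly blue.

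NF-kB subunit genes and those of the inhibitors that NF-kB induces rose in nearly all cases. Of 4 measured subunit genes 3 rose, Rela among them (list median 1.09). Nfkb2 and Relb, subunits of the non-canonical dimer, rose by 2.09 ± 0.09 and 0.77 ± 0.09. Rel, the c-Rel subunit known mostly from leukocytes, was at 8.94, 8.71, 8.90 and 8.87 in the S534A LPS arrays, against 8.74, 8.67, 8.67 and 8.68 in the untreated S534A arrays. These groups overlap, and the change of 0.16 ± 0.09 was not called (limma adjusted p = 0.15). All 11 measured IkB and feedback genes rose, with a list median of 1.44 beside −0.03 over all genes. Tnfaip3, the A20 ubiquitin-editing enzyme that shuts the pathway off, stood at 9.90, 10.04, 9.86 and 9.85 in the S534A LPS arrays, against 6.46, 6.63, 6.73 and 6.63 in the untreated S534A arrays. The lowest LPS array lay 3.12 log2 units above the highest untreated array (3.30 ± 0.09, 9.84-fold, adjusted p = 1.57e-14). Nfkbia, which encodes IkB alpha, was at 11.07, 11.11, 10.89 and 11.09 in the S534A LPS arrays, against 9.71, 9.97, 9.62 and 9.87 in the untreated S534A arrays. Its groups did not overlap and the rise was smaller (1.25 ± 0.14, 2.38-fold, adjusted p = 1.65e-06). The nuclear IkB proteins Bcl3 (2.05 ± 0.19) and Nfkbiz (1.84 ± 0.11), the A20 partner Tnip1 (1.98 ± 0.09) and Nfkbie (1.91 ± 0.10) rose too, and Nfkbid rose least (0.28 ± 0.06).

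Most genes of the TLR4 pathway rose, while Tlr4 itself was not called. Of 22 measured members 13 rose and 1 fell, Irak1 (−0.19 ± 0.07), a kinase that docks to MyD88. Leaving out any 1 S534A array other than LPS array 1 ended that call, with changes between −0.20 and −0.18 and then no fall in the list. The LPS co-receptor Cd14 was at 11.38, 11.10, 10.43 and 11.42 in the S534A LPS arrays, against 6.80, 6.20, 6.54 and 6.33 in the untreated S534A arrays. LPS array 3 was the lowest of its group and still 3.63 units above the highest untreated array (4.62 ± 0.21, 24.5-fold, adjusted p = 1.88e-11). Tlr2, the receptor for bacterial lipoproteins, rose by 4.56 ± 0.10, the double-stranded RNA receptor Tlr3 by 3.29 ± 0.09, and Irak3, an inhibitor of the pathway, by 3.57 ± 0.10. Among kinases and adaptors Tbk1 (2.19 ± 0.09), Ikbke (2.53 ± 0.18) and Myd88 (2.17 ± 0.08) rose. Tlr4 stood at 6.00, 5.67, 5.81 and 5.69 in the S534A LPS arrays, against 6.10, 5.72, 5.85 and 5.91 in the untreated S534A arrays, and the groups overlap (−0.10 ± 0.16, adjusted p = 0.65). Its levels lay low on the scale, below the lowest array median of 6.25, where a change could be missed. Map3k7 (−0.15 ± 0.07) and Tab2 (−0.04 ± 0.12), a kinase and its adaptor below TRAF6, were not called.

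Transcription factors and decay factors of the immediate response rose more often than they fell. Among AP-1 and immediate early genes 52.2% rose and 4.35% fell, beside 14.2% and 31.2% of all genes tested. Among phosphatases and mRNA decay factors 57.9% rose and 10.5% fell. The 1 fall among AP-1 genes was lost without LPS array 3 or 4 or untreated array 3 or 4. Of 23 AP-1 and immediate early genes 12 rose, led by Atf3 (2.16 ± 0.28), the interferon-linked Batf2 (1.73 ± 0.10), Klf6 (1.71 ± 0.16) and Junb (1.16 ± 0.14), whereas Fos (−0.38 ± 0.24) and Egr1 (0.91 ± 0.39) were not called. Single arrays decide these: Fos was called lower without untreated array 1 (−0.59), and Egr1 higher without untreated array 3 (1.35) or 4 (1.10). Among 19 phosphatases and mRNA decay factors 11 rose, including the stress genes Gadd45b (2.73 ± 0.31) and Gadd45g (2.26 ± 0.31), the kinase Map3k8 (1.83 ± 0.11) and the mRNA-destabilising Zfp36 (1.05 ± 0.17) and Zc3h12a (1.16 ± 0.11). Dusp6, a phosphatase of ERK kinases, fell to 8.30, 8.19, 7.99 and 8.16 in the S534A LPS arrays, against 10.19, 10.41, 10.24 and 10.33 in the untreated S534A arrays. All LPS arrays lay below all untreated arrays (−2.13 ± 0.25, adjusted p = 2.38e-06).

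Chemokines that attract T cells, monocytes and neutrophils were among the largest rises. Cxcl10, a ligand of CXCR3 on T cells, was at 13.85, 13.69, 13.86 and 13.80 in the S534A LPS arrays, against 8.54, 8.18, 8.41 and 8.57 in the untreated S534A arrays. The LPS arrays lay close together and the lowest was 5.12 units above the highest untreated array (5.37 ± 0.11, 41.5-fold, adjusted p = 5.47e-16). Its relatives Cxcl9 (4.35 ± 0.16) and Cxcl11 (3.38 ± 0.10) and the neutrophil attractants Cxcl1 (3.44 ± 0.15) and Cxcl2 (2.47 ± 0.16) rose as well. The macrophage chemokine Ccl3 was at 11.43, 11.58, 11.76 and 11.63 in the S534A LPS arrays, against 6.23, 6.53, 6.06 and 6.46 in the untreated S534A arrays, with no overlap (5.28 ± 0.12, 38.9-fold). Ccl2, which draws monocytes, rose by 4.39 ± 0.11, Ccl5 by 3.69 ± 0.10 and Ccl7 by 3.12 ± 0.14, and the atypical chemokine receptor gene Ccrl2 by 5.26 ± 0.13. Cxcl12, the ligand of CXCR4, went the other way, at 9.11, 8.83, 8.99 and 9.02 in the S534A LPS arrays, against 10.43, 10.51, 10.63 and 10.50 in the untreated S534A arrays (−1.53 ± 0.14, adjusted p = 1.52e-07). Of 11 CXC chemokines 8 rose and 1 fell, and of 13 CC chemokines 8 rose and 2 fell, Ccl6 (−0.97 ± 0.13) and Ccl24 (−0.40 ± 0.12).

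Cytokines and their inhibitors rose side by side. In the interleukin-1 group 7 of 9 measured members rose. Il1rn, the receptor antagonist, was at 12.11, 11.07, 11.07 and 11.12 in the S534A LPS arrays, against 7.23, 7.47, 7.14 and 7.25 in the untreated S534A arrays. LPS array 1 stood above the other LPS arrays, which were close to each other, and all lay above the untreated arrays (4.07 ± 0.20, 16.8-fold). The agonist Il1b rose by 2.49 ± 0.14, the decoy receptor Il1r2 by 2.84 ± 0.15 and the alarmin Il33 by 1.74 ± 0.24, and the accessory chain Il1rap fell by 0.42. Tnf was at 8.57, 8.77, 8.56 and 8.75 in the S534A LPS arrays, against 6.24, 6.47, 6.62 and 6.51 in the untreated S534A arrays (2.20 ± 0.16, adjusted p = 8.01e-09). Fas (2.70 ± 0.11), the death ligand Tnfsf10 (3.51 ± 0.13) and Cd40 (2.15 ± 0.13) rose, and the adaptor Tradd fell (−0.67 ± 0.10), among 11 of 17 members that rose and 1 that fell.

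Of 18 genes around interleukin-6 signalling 9 rose and 2 fell. Il6 was at 6.25, 5.50, 5.87 and 5.71 in the S534A LPS arrays, against 4.68, 4.55, 4.59 and 4.71 in the untreated S534A arrays. The groups did not overlap, and the levels lay low on the scale (1.20 ± 0.20, adjusted p = 8.55e-05). The oncostatin receptor Osmr (2.96 ± 0.11), Stat3 (1.67 ± 0.07) and the inhibitors Socs3 (2.87 ± 0.31), Socs1 (2.24 ± 0.09) and Socs2 (2.11 ± 0.37) rose, the leukaemia inhibitory factor receptor Lifr fell (−0.42 ± 0.12), and Il6ra (0.20 ± 0.24) was not called.

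Interferon-stimulated genes were among the largest rises. Ifit2, which blocks translation of viral RNA, was at 12.48, 12.57, 12.75 and 12.87 in the S534A LPS arrays, against 6.71, 6.78, 6.42 and 6.51 in the untreated S534A arrays. The groups lay 5.71 units apart (6.07 ± 0.12, 67-fold, adjusted p = 5.44e-16). All 20 measured IFIT, OAS and MX effectors rose (list median 3.51), with the GTPases Mx1 (6.06 ± 0.14) and Mx2 (5.73 ± 0.13), Ifit3b (5.84 ± 0.13), Ifit1 (5.77 ± 0.14) and Rsad2, the viperin enzyme (5.53 ± 0.15), at the top. The membrane protein Ifitm3 was at 13.34, 13.37, 13.44 and 13.40 in the S534A LPS arrays, against 13.16, 13.08, 13.12 and 13.12 in the untreated S534A arrays, high on the scale in both groups, with a rise of 0.27 ± 0.06 (adjusted p = 0.00098). All 9 measured guanylate-binding and immunity-related GTPases rose (list median 3.64), and so did all 8 Schlafen genes (list median 2.56). Gbp5, which assembles on pathogen membranes, was at 10.91, 10.93, 10.56 and 10.84 in the S534A LPS arrays, against 5.48, 5.51, 5.53 and 5.44 in the untreated S534A arrays, and the untreated arrays lay close together (5.32 ± 0.11, 40-fold). Slfn4, a Schlafen gene of myeloid cells, was at 11.31, 11.31, 11.07 and 11.21 in the S534A LPS arrays, against 5.77, 5.92, 5.77 and 5.88 in the untreated S534A arrays (5.39 ± 0.11, 41.9-fold). Cmpk2, an interferon-induced nucleotide kinase of mitochondria, rose by 5.46 ± 0.15.

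Interferon regulatory factors, receptors, JAK kinases and STATs changed in both directions. Of 8 interferon regulatory factors 5 rose, with Irf7 at 11.56, 11.72, 11.62 and 11.80 in the S534A LPS arrays, against 8.81, 8.96, 8.98 and 8.93 in the untreated S534A arrays (2.76 ± 0.13), Irf1 at a change of 1.79 ± 0.15 and Irf9 at 1.34 ± 0.07, and Irf3 fell (−0.33 ± 0.07). Of 12 interferon, receptor, JAK and STAT genes 5 rose and 5 fell. Stat2 (1.76 ± 0.10) and Jak2 (1.6 ± 0.11) rose, while the receptor chains Ifnar1 (−0.27 ± 0.08) and Ifngr1 (−0.51 ± 0.13) and the STAT genes Stat5b (−0.56 ± 0.16) and Stat6 (−0.55 ± 0.08) fell. The fall of Stat5b was −0.35 without untreated array 3.

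Short sequence cores were looked for in promoter windows of RefSeq (GRCm38.p6), from 250 bases before to 50 after the start, in the 10169 tested genes with exactly 1 window. The 3 cores, read on both strands, were GGANTTTCC for NF-kB, GAAANNGAA for interferon response elements and TTCNNNGAA for STAT sites, where N is any base. The interferon core was found in 30.7% of the windows of genes that rose at least 4-fold (43 of 140), in 4.08% of those that fell at least 4-fold (2 of 49) and in 7.15% of all windows. Among the IFIT, OAS, MX, guanylate-binding and Schlafen genes 15 of 23 windows held it (65.2%). The NF-kB core was found in 5.71% (8 of 140), 2.04% (1 of 49) and 1.42%, and the STAT core in 14.3% (20 of 140), 4.08% (2 of 49) and 7.02% of the same sets. Of the windows of NF-kB subunit and IkB genes 2 of 10 held the NF-kB core. A match is a run of letters and not a measured binding site. Runs that differ from a core in any fixed letter were not counted, so a window without a match may still hold other sites. The 4 promoters below, each from 250 bases before the start up to the start, are shown because their genes rose and they hold interferon cores alone (Ifit1) or both cores (Cxcl10, Gbp5 and Nfkbia). Capitals mark every match to the NF-kB or interferon core on either strand.
Ifit1 (chr19:34640639-34640888, plus strand): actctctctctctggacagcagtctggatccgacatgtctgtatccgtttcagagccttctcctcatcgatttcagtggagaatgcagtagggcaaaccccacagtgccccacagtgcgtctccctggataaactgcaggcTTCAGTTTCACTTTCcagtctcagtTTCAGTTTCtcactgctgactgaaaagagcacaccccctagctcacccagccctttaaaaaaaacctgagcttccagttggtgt
Cxcl10 (chr5:92348890-92349139, minus strand): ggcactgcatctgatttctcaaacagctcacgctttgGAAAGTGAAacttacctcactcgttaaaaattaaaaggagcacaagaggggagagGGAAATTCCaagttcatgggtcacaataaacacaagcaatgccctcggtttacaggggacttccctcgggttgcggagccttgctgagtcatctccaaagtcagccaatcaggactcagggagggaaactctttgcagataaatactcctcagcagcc
Gbp5 (chr3:142496684-142496933, plus strand): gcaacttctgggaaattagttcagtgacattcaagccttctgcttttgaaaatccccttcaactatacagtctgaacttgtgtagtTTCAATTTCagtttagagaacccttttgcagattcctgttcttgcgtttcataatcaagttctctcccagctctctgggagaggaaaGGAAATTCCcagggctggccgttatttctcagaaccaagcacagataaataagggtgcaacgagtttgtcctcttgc
Nfkbia (chr12:55492648-55492897, minus strand): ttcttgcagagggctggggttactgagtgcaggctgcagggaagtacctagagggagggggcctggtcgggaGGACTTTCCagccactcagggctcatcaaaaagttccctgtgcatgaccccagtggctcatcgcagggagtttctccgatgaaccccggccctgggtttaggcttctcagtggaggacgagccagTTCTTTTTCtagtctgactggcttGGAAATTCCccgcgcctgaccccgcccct
Positions are those of the first base of a core from the start site. The interferon cores of Ifit1 begin at −109, −103 and −84, and the first and second overlap. In Cxcl10 the interferon core begins at −213 and the NF-kB core at −158, and in Gbp5 they begin at −164 and −77. Nfkbia, whose rise of 1.25 was the smallest of the 4, holds 2 NF-kB cores, at −178 and −29, and 1 interferon core between them at −53.

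Genes of peptide presentation on class I molecules rose in most cases, and those of class II fell or were not called. Of 13 measured class I processing and immunoproteasome genes 12 rose. The peptide transporter Tap1 was at 11.54, 11.51, 11.32 and 11.45 in the S534A LPS arrays, against 8.15, 8.15, 8.57 and 8.24 in the untreated S534A arrays, without overlap (3.18 ± 0.11, 9.07-fold). The immunoproteasome subunits Psmb8 (1.78 ± 0.08), Psmb9 (1.78 ± 0.09) and Psmb10 (1.83 ± 0.09) and the class I activator Nlrc5 (1.66 ± 0.11) rose. B2m, the light chain of class I, was at 13.48, 13.39, 13.56 and 13.47 in the S534A LPS arrays, against 13.55, 13.47, 13.45 and 13.34 in the untreated S534A arrays, high on the scale with overlapping groups (0.02 ± 0.06, adjusted p = 0.799). Of 31 constitutive proteasome subunits 8 rose, none by 2-fold, led by Psma5 (0.83 ± 0.09), and 2 fell, or 10 with median-centred arrays and 1 without LPS array 3, LPS array 4 or untreated array 3. Of 9 class II pathway genes 5 fell and 0 rose. H2-Aa was at 9.16, 8.21, 8.76 and 8.92 in the S534A LPS arrays, against 9.70, 9.38, 9.75 and 9.62 in the untreated S534A arrays (−0.85 ± 0.22, adjusted p = 0.0037), and the peptide exchange factor gene H2-DMa fell by 0.91. The invariant chain Cd74 (−0.44 ± 0.21) and the class II activator Ciita (0.10 ± 0.08) were not called, though Cd74 was called lower without LPS array 1 (−0.57).

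Genes of necroptosis and pyroptosis rose in 12 of 17 cases and fell in 0. The nucleic acid sensor Zbp1 was at 11.60, 11.83, 11.69 and 11.72 in the S534A LPS arrays, against 7.79, 7.11, 8.07 and 7.88 in the untreated S534A arrays (4.00 ± 0.17, 16-fold). Mlkl, the pore-forming effector of necroptosis, lay between 10.36 and 10.40 in the S534A LPS arrays and between 6.62 and 7.07 in the untreated S534A arrays (3.57 ± 0.14). The LPS-sensing caspase Casp4 (2.59 ± 0.12), Gsdmd, the pore protein of pyroptosis (1.18 ± 0.09), and Nlrp3 (1.30 ± 0.10) rose, while Casp1 (0.18 ± 0.14) was not called. In the BCL2 and IAP list 8 of 20 rose, among them the anti-apoptotic Bcl2l1 (1.75 ± 0.13), Birc3 (1.94 ± 0.08) and Birc2 (2.26 ± 0.13) and the apoptosome gene Apaf1 (2.89 ± 0.11), and 4 fell, with Casp9 at −0.90 ± 0.11 and Bmf at −0.86 ± 0.14. Rises made up 40% of that list, beside 14.2% of all genes tested, and falls 20%, beside 31.2%. Nos2, which makes nitric oxide, was at 9.19, 8.78, 8.92 and 9.16 in the S534A LPS arrays, against 5.69, 5.65, 6.00 and 5.83 in the untreated S534A arrays (3.22 ± 0.16, 9.32-fold).

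The acute-phase response ran from a 76.5-fold rise of Saa1 to no call for albumin. Saa1, a serum amyloid apolipoprotein, was at 12.12, 11.90, 12.03 and 11.95 in the S534A LPS arrays, against 6.10, 5.89, 5.46 and 5.52 in the untreated S534A arrays. The LPS arrays lay close together, 5.79 units above the highest untreated array (6.26 ± 0.37, adjusted p = 5.28e-10). Saa2 (5.45 ± 0.38) and Saa3 (5.19 ± 0.15) rose nearly as much, and the constitutive Saa4 by 0.62 ± 0.10. Lcn2, which binds bacterial siderophores, was at 13.64, 13.58, 13.67 and 13.64 in the S534A LPS arrays, against 8.78, 8.73, 9.04 and 8.88 in the untreated S534A arrays (4.77 ± 0.29, 27.4-fold). Of 25 measured acute-phase genes 20 rose and 0 fell, with Steap4 (2.97 ± 0.20), Orm2 (2.42 ± 0.18), serum amyloid P, Apcs (1.51 ± 0.18), and the LPS-binding protein Lbp (1.36 ± 0.12) behind the serum amyloids. The fibrinogen chains rose unequally, Fga by 1.49 ± 0.14, Fgb by 0.32 ± 0.06 and Fgg by 0.31 ± 0.06, and Crp, a minor reactant in mice, by 0.60 ± 0.07. The negative reactants were not called: Alb was at 14.16, 14.05, 14.20 and 14.07 in the S534A LPS arrays, against 14.16, 14.10, 14.12 and 14.00 in the untreated S534A arrays (0.03 ± 0.06), and the changes were −0.12 ± 0.05 for Ttr and −0.12 ± 0.06 for Rbp4, the carriers of thyroid hormone and retinol. The levels of Alb lie near the top of the scale. With median-centred arrays Ttr (−0.22) and Rbp4 (−0.22) were called lower.

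Among 12 plasma protease inhibitors 4 rose and 1 fell (2 without LPS array 1). A2m, a broad protease trap that is an acute-phase protein of rats, was at 11.70, 12.07, 12.11 and 11.93 in the S534A LPS arrays, against 6.18, 6.57, 6.62 and 6.44 in the untreated S534A arrays (5.50 ± 0.13, 45.2-fold). Timp1, an inhibitor of matrix metalloproteinases, rose by 2.69 ± 0.22 and Serpina10 by 1.81 ± 0.06, while Serpinc1, antithrombin, was at a change of −0.11 ± 0.05 and not called. Among complement genes of hepatocytes Cfb rose by 0.50 ± 0.06, C2 by 0.55 ± 0.09, and C9 (−0.06 ± 0.09) was not called. The C1q chains, which macrophages make, fell, with changes of −1.22 for C1qc, −0.80 for C1qb and −0.66 for C1qa, among 6 of 23 complement genes that fell and 6 that rose. With median-centred arrays 12 complement genes fell. In coagulation 3 of 22 genes rose, the urokinase receptor Plaur (1.10 ± 0.11), the protein C receptor Procr (1.16 ± 0.13) and thrombomodulin, Thbd (0.87 ± 0.19), and 8 fell, F8 (−1.45 ± 0.15) and Tfpi (−1.45 ± 0.13) most. The share of coagulation genes that fell was 36.4%, and that of complement genes 26.1%, beside 31.2% of all genes. Rises made up 13.6% of coagulation genes, close to the 14.2% of all genes tested, and 26.1% of complement genes. Prothrombin, F2 (0.02 ± 0.05), was not called.

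Iron and metal genes moved both ways, 9 of 20 higher and 7 lower. The share that rose was 45%, beside 14.2% of all genes, and the share that fell, 35%, was close to the 31.2% of all genes. Slc40a1, the only known iron exporter of cells, was at 8.15, 7.65, 7.41 and 7.09 in the S534A LPS arrays, against 11.05, 10.54, 10.75 and 10.75 in the untreated S534A arrays. The groups lay 2.39 units apart (−3.19 ± 0.19, 9.14-fold, adjusted p = 6.39e-10). Hjv, a BMP co-receptor of hepcidin control, was at 7.94, 7.97, 8.35 and 8.07 in the S534A LPS arrays, against 10.72, 10.84, 11.46 and 11.18 in the untreated S534A arrays (−2.97 ± 0.16). Hamp, which encodes hepcidin, was at 13.73, 13.64, 13.62 and 13.56 in the S534A LPS arrays, against 13.39, 13.45, 12.89 and 13.36 in the untreated S534A arrays, and untreated array 3 was the lowest (0.36 ± 0.11, adjusted p = 0.00951). The rise was 0.23 without that array, and with median-centred arrays it was 0.27 and not called. The transferrin receptor Tfrc fell (−1.20 ± 0.25), and the importers Slc39a14 (1.86 ± 0.20) and Slc11a2 (1.62 ± 0.09), Hmox1, which breaks down heme (1.54 ± 0.25), and the metallothioneins Mt1 (3.52 ± 0.15) and Mt2 (3.25 ± 0.28) rose.

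Bile acid synthesis held the largest fall of all. Cyp7a1, its rate-limiting enzyme, was at 6.56, 6.00, 6.11 and 6.31 in the S534A LPS arrays, against 12.63, 12.75, 11.13 and 12.43 in the untreated S534A arrays. Untreated array 3 was the lowest untreated array and still 4.57 units above the highest LPS array (−5.99 ± 0.40, 63.6-fold, adjusted p = 3.05e-09). Cyp8b1, which makes cholic acid, fell by 1.85, and 16 of 31 bile acid genes fell in all, among them the canalicular pumps Abcc2 (−0.90 ± 0.11) and Abcb4 (−0.61 ± 0.10) and the uptake carrier Slc10a1 (−0.37 ± 0.06). The 2 that rose were Slc51b, a subunit of the basolateral exporter, at 7.36, 7.79, 7.5 and 7.51 in the S534A LPS arrays, against 6.22, 6.37, 6.55 and 6.38 in the untreated S534A arrays (1.16 ± 0.15), and the conjugating enzyme Baat (0.73 ± 0.08). Cyp27a1, which starts the alternative pathway, was not called (−0.12 ± 0.06).

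Cholesterol synthesis fell almost as a whole, in 20 of 21 measured genes, with a list median of −0.87. Lss, lanosterol synthase, was at 8.30, 9.10, 8.25 and 9.12 in the S534A LPS arrays, against 10.03, 10.16, 10.32 and 10.19 in the untreated S534A arrays (−1.48 ± 0.22, adjusted p = 2.94e-05). Hmgcs1, an early synthase of the pathway, was at 9.83, 11.11, 10.28 and 11.11 in the S534A LPS arrays, against 11.84, 11.63, 12.29 and 11.88 in the untreated S534A arrays (−1.33 ± 0.25, adjusted p = 0.000276). LPS arrays 1 and 3 were lower than LPS arrays 2 and 4 for both genes, and 17 of the 21 members showed that order, against 4050 of the 15908 genes tested (25.5%). That order was chosen after the values were seen, both genes are among the 21, and genes of 1 list are not independent replicates. The mean level of the list was 10.01, 10.49, 10.14 and 10.55 in the S534A LPS arrays, against 11.11, 11.09, 11.30 and 11.18 in the untreated S534A arrays. Msmo1 (−1.38 ± 0.15), Insig1, a brake on SREBP processing (−1.33 ± 0.16), and Mvk (−1.25 ± 0.14) fell, and Insig2 (−0.48 ± 0.33) was not called. Srebf2, the regulator of the pathway, fell by 0.29 with overlapping groups, and the call was lost without LPS array 1 or 3 or untreated array 1, 3 or 4, when the change lay between −0.31 and −0.21.

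Of 29 lipogenesis and lipid storage genes 17 fell and 2 rose. Angptl8, an insulin-responsive inhibitor of lipoprotein lipase, was at 7.61, 8.80, 8.30 and 8.44 in the S534A LPS arrays, against 11.17, 11.08, 10.06 and 10.94 in the untreated S534A arrays (−2.53 ± 0.33, 5.77-fold). The acyltransferase Gpam (−1.56 ± 0.11), the lipolysis inhibitor G0s2 (−1.56 ± 0.28), Srebf1 (−1.39 ± 0.21) and Acaca (−0.75 ± 0.21) fell, and the lipid droplet gene Cidec rose (0.78 ± 0.24). Scd1, a desaturase, was not called (−0.17 ± 0.10), but it was without LPS array 1 (−0.27). In fatty acid oxidation 16 of 31 genes fell and 0 rose (1 without LPS array 1), and no fall reached 2-fold. The carnitine acetyltransferase Crat (−0.95 ± 0.17) and the carnitine carrier Slc25a20 (−0.60 ± 0.12) fell, while Cpt1a (0.10 ± 0.13), the gate enzyme of mitochondrial uptake, was not called.

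Of 27 glucose and glycogen genes 13 fell and 5 rose. Falls made up 48.1%, beside 31.2% of all genes tested, and rises 18.5%, beside 14.2%. G6pc, which releases free glucose, was at 9.39, 10.63, 10.42 and 10.04 in the S534A LPS arrays, against 13.27, 13.45, 13.65 and 13.49 in the untreated S534A arrays. LPS array 1 was the lowest, and the groups lay 2.64 units apart (−3.34 ± 0.26, 10.1-fold, adjusted p = 1.76e-08). Pck1, an earlier enzyme of the same route, was at 13.30, 12.98, 13.23 and 13.21 in the S534A LPS arrays, against 13.08, 13.27, 12.98 and 13.13 in the untreated S534A arrays, and the groups overlap (0.07 ± 0.14, adjusted p = 0.723). The glycogen-targeting subunit Ppp1r3b (−1.06 ± 0.24), the glucose carrier Slc2a2 (−1.09 ± 0.23) and the pyruvate kinase Pklr (−0.97 ± 0.27) fell as well. The 5 that rose included Hk2 (1.24 ± 0.14) and Pfkfb3, which drives glycolysis, at 11.34, 11.70, 11.71 and 11.61 in the S534A LPS arrays, against 9.78, 9.02, 6.55 and 8.73 in the untreated S534A arrays. Untreated array 3 stood well below the other untreated arrays (3.07 ± 0.60, adjusted p = 0.000435), and the rise was 2.41 without it.

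In the insulin and growth hormone list 11 of 21 genes fell and 5 rose. Irs1, a docking protein of the insulin receptor, was at 6.45, 6.58, 6.42 and 6.45 in the S534A LPS arrays, against 8.57, 8.76, 9.04 and 8.77 in the untreated S534A arrays (−2.31 ± 0.13, 4.95-fold). Irs2, its relative, rose by 0.87 ± 0.24, and the receptor Insr by 0.55 ± 0.10. The FGF21 co-receptor Klb (−1.83 ± 0.15) and Igfals, which carries IGF in plasma (−1.05 ± 0.14), fell, while Igf1 was at 12.57, 12.49, 12.56 and 12.54 in the S534A LPS arrays, against 12.68, 12.51, 12.61 and 12.54 in the untreated S534A arrays and not called (−0.05 ± 0.06). Igfbp1, a stress-responsive IGF-binding protein, was at 13.31, 12.90, 12.72 and 12.73 in the S534A LPS arrays, against 11.31, 11.60, 12.02 and 11.78 in the untreated S534A arrays (1.24 ± 0.26, adjusted p = 0.000946). The leptin receptor Lepr was at 9.28, 6.89, 6.47 and 6.85 in the S534A LPS arrays, against 5.62, 5.55, 5.37 and 5.59 in the untreated S534A arrays. LPS array 1 stood well above the other LPS arrays, and the rise of 1.84 ± 0.43 was 1.20 without it.

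Nuclear receptors fell in 16 of 23 measured cases (list median −0.57), and 1 rose, Nr5a2 (0.34 ± 0.07). Nr1i3, the constitutive androstane receptor that controls drug metabolism, was at 8.15, 8.34, 8.90 and 8.77 in the S534A LPS arrays, against 11.23, 11.58, 11.03 and 11.34 in the untreated S534A arrays (−2.76 ± 0.25, 6.76-fold). Nr0b2, a co-repressor of bile acid synthesis, fell by 2.04, as did the fatty acid sensor Ppara (−1.20 ± 0.21), the bile acid receptor Nr1h4 (−1.02 ± 0.19) and the pregnane receptor Nr1i2 (−0.99 ± 0.20). Hnf4a (0.17 ± 0.08) and the glucocorticoid receptor Nr3c1 (−0.13 ± 0.08) were not called. Of 16 hepatocyte transcription factors 4 rose, Cebpd (1.74 ± 0.11) and Cebpb (1.32 ± 0.14) most, and 6 fell, including Cebpa (−0.72 ± 0.17) and Foxa1 (−1.08 ± 0.28). The share that fell was 37.5%, beside 31.2% of all genes.

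Cytochrome P450 genes of families 1 to 4 fell in 12 of 27 cases (7 without LPS array 1) and rose in 0 (1 without untreated array 3). The share that fell was 44.4%, beside 31.2% of all genes tested, and 1 fall reached 2-fold, that of Cyp4b1 (−1.22 ± 0.14). Cyp2c38 (−0.95 ± 0.28) and Cyp2c39 (−0.64 ± 0.15) fell, and Cyp3a11 (0.32 ± 0.17), Cyp2e1 (−0.15 ± 0.07) and Cyp2b10 (−0.22 ± 0.28) were not called. Without untreated array 3 Cyp3a11 was called higher (0.46). Phase II conjugation enzymes fell in 19 of 28 cases and rose in 2 (1 without LPS array 2, LPS array 3, untreated array 1, untreated array 2 or untreated array 3). The falls were led by the N-acetyltransferase Nat8 (−1.6 ± 0.32), the sulfotransferases Sult1c2 (−1.14 ± 0.18) and Sult1b1 (−1.01 ± 0.21) and the glutathione transferase Gstt2 (−1.13 ± 0.24).

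Wnt and pericentral genes fell in 14 of 19 cases. Lgr5, the R-spondin receptor of pericentral hepatocytes, was at 6.85, 6.76, 6.91 and 6.81 in the S534A LPS arrays, against 8.92, 9.24, 8.18 and 8.81 in the untreated S534A arrays (−1.95 ± 0.21, 3.87-fold). The Wnt receptor ligases Rnf43 (−2.06 ± 0.30) and Znrf3 (−1.51 ± 0.22), Tbx3 (−1.65 ± 0.22), Axin2 (−0.54 ± 0.17) and the endothelial signals Wnt2 (−1.14 ± 0.09) and Rspo3 (−0.76 ± 0.13) fell. Glul, glutamine synthetase of the last pericentral layer, was at 12.56, 12.85, 12.91 and 12.92 in the S534A LPS arrays, against 12.86, 12.78, 12.85 and 12.69 in the untreated S534A arrays and not called (0.01 ± 0.08).

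Of 17 methionine cycle and transsulfuration genes 11 fell, among them Bhmt2 (−0.77 ± 0.08) and the glutathione synthesis genes Gclc (−0.59 ± 0.15) and Gclm (−0.58 ± 0.07). Nnmt, which methylates nicotinamide, rose to 12.94, 12.37, 12.61 and 12.43 in the S534A LPS arrays, against 11.59, 11.79, 11.36 and 11.67 in the untreated S534A arrays (0.99 ± 0.13). Of 28 amino acid breakdown and NAD genes 15 fell and 4 rose. Falls made up 53.6%, beside 31.2% of all genes tested, and rises 14.3%, close to the 14.2% of all genes. Nampt, the first enzyme of NAD salvage, was at 12.30, 12.10, 12.31 and 12.18 in the S534A LPS arrays, against 10.88, 10.80, 9.81 and 10.46 in the untreated S534A arrays (1.74 ± 0.24, 3.33-fold), whereas Nmnat1 (−0.87 ± 0.12) and Qprt (−0.34 ± 0.07), which make NAD and its precursor, fell. In the urea cycle list 3 of 13 fell (5 without LPS array 3), a share of 23.1% beside 31.2% of all genes, among them Nags, which makes the activator of the cycle (−1.03 ± 0.11), and Cps1 (−0.07 ± 0.05) and Otc (−0.15 ± 0.07) were not called, while the amino acid carrier Slc38a2 rose (1.07 ± 0.17). Without LPS array 3 the fall of Otc, −0.20, was called.

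Of 21 apolipoprotein and HDL genes 2 rose and 3 fell. Both shares, 9.52% and 14.3%, were below those of all genes tested, 14.2% and 31.2%. Abca1, which loads lipid onto HDL, was at 12.61, 12.50, 12.25 and 12.30 in the S534A LPS arrays, against 11.17, 11, 10.87 and 10.95 in the untreated S534A arrays (1.42 ± 0.09, 2.67-fold), and Apoa5 rose by 0.55 ± 0.07. Apoa1, the main HDL protein, was at 14.05, 14.01, 14.00 and 14.00 in the S534A LPS arrays, against 14.03, 14.01, 14.09 and 14.02 in the untreated S534A arrays, near the top of the scale (−0.02 ± 0.05, adjusted p = 0.737). The lipid transfer genes Pltp (−0.61 ± 0.17) and Mttp (−0.44 ± 0.08) fell.

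Lists of general cell functions gave few large changes. Of 36 respiratory chain subunits 11 fell (6 without LPS array 2 and 7 without untreated array 2) and 0 rose, with Sdhd lowest (−0.51 ± 0.08). The share that fell, 30.6%, was close to the 31.2% of all genes tested. With median-centred arrays 26 subunits fell, where 6231 of the 15908 genes fell. Of 23 ribosomal protein genes 1 rose, Rps20 (0.23 ± 0.05), and 2 fell, or 0 and 8 with median-centred arrays. The count of falls was 1 without LPS array 1, LPS array 2 or untreated array 1 and 0 without LPS array 3, LPS array 4, untreated array 2, untreated array 3 or untreated array 4. Endoplasmic reticulum chaperones and unfolded protein response genes rose in 9 of 31 cases, Chac1 (1.75 ± 0.12), Creb3l2 (1.38 ± 0.13) and Syvn1 (1.15 ± 0.20) most, while the main chaperone Hspa5 (0.21 ± 0.17) was not called and the sensor Ern1 fell (−1.07 ± 0.11). In the NRF2 and antioxidant list 7 of 25 rose, Cybb, the phagocyte oxidase (1.27 ± 0.12), and the manganese dismutase Sod2 (0.68 ± 0.06) among them, and 10 fell (6 without untreated array 4), including Nfe2l2 itself (−0.54 ± 0.12) and its target Nqo1 (−0.71 ± 0.18). The shares of that list that rose and fell were 28% and 40%, beside 14.2% and 31.2% of all genes tested. Cell cycle genes fell in 15 of 31 cases, Cdk2 (−1.58 ± 0.23) and Ccnd1 (−1.06 ± 0.27) most, and the antiproliferative Btg2 (1.14 ± 0.22) and Plk3 (1.29 ± 0.30) were among the 4 that rose (2 without LPS array 1 or untreated array 2). Falls made up 48.4% of that list, and rises 12.9%, close to the 14.2% of all genes tested.

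**Figure D3:**
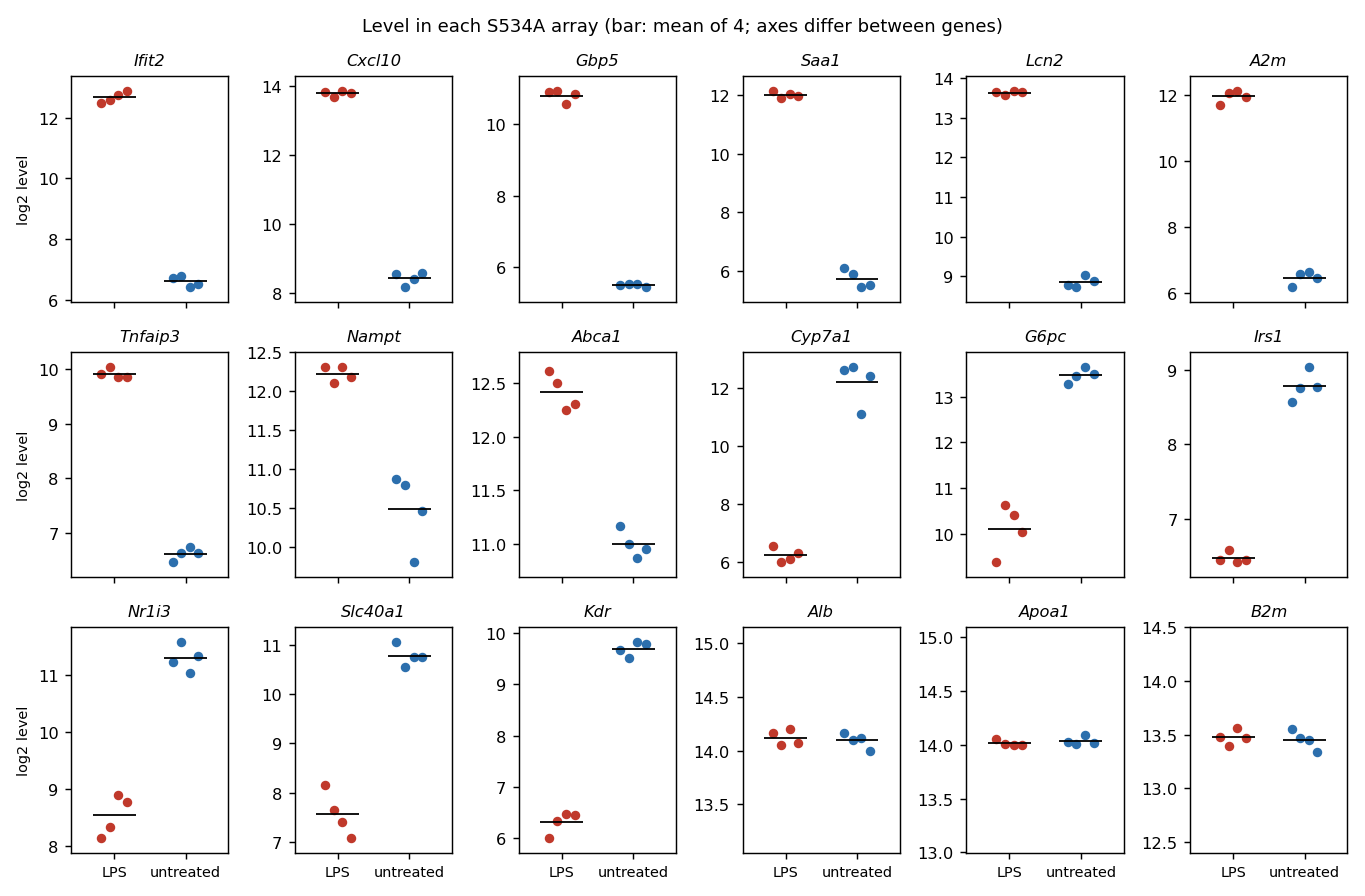
Each panel gives the log2 level of 1 gene on the 4 S534A LPS arrays (red, left) and the 4 untreated S534A arrays (blue, right), with the mean as a bar. Vertical axes differ between genes and span at least 2 log2 units. Nampt, Abca1 and the genes of the first row are higher after LPS, Cyp7a1 to Kdr are lower, and Alb, Apoa1 and B2m overlap.

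Several clock genes varied widely within the untreated group. Dbp, an output factor of the clock, was at 8.53, 7.22, 8.36 and 8.87 in the S534A LPS arrays, against 11.37, 11.50, 7.33 and 10.98 in the untreated S534A arrays. Untreated array 3 lay within the range of the LPS arrays and far below the other untreated arrays, and the change of −2.05 ± 0.92 was not called (limma adjusted p = 0.0799). Without untreated array 3 it was −3.04 (adjusted p = 0.00399). Arntl, the BMAL1 activator that runs opposite to Dbp, was at 7.02, 8.02, 7.11 and 6.61 in the S534A LPS arrays, against 6.43, 6.43, 9.71 and 8.33 in the untreated S534A arrays, with untreated arrays 3 and 4 above the other pair (−0.53 ± 0.72, adjusted p = 0.581). Of 17 clock and output genes 5 fell (2 without LPS array 2 or untreated array 1 and 3 without LPS array 3, untreated array 2 or untreated array 4), a share of 29.4% beside 31.2% of all genes. Among them was Per3, at 6.61, 6.44, 6.82 and 7.11 in the S534A LPS arrays, against 9.22, 8.98, 6.71 and 8.36 in the untreated S534A arrays (−1.57 ± 0.53). That call was lost without LPS array 2 or untreated array 1 or 2, when the change lay between −1.47 and −1.27. The falls of Tef (−1.23 ± 0.47), an output factor, and Usp2 (−2.45 ± 0.83), a clock-controlled protease, were also lost without single arrays (7 of 8 for Tef, LPS array 2 and untreated arrays 1, 2 and 4 for Usp2), with changes from −1.28 to −1.0 for Tef and from −2.38 to −2.13 for Usp2. The repressor Nfil3 rose, at 10.84, 10.93, 10.80 and 10.70 in the S534A LPS arrays, against 7.60, 8.48, 10.11 and 9.19 in the untreated S534A arrays (1.98 ± 0.41). The labels give a light cycle but no collection hour, and the part of collection time in any result was not tested.

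**Figure D4:**
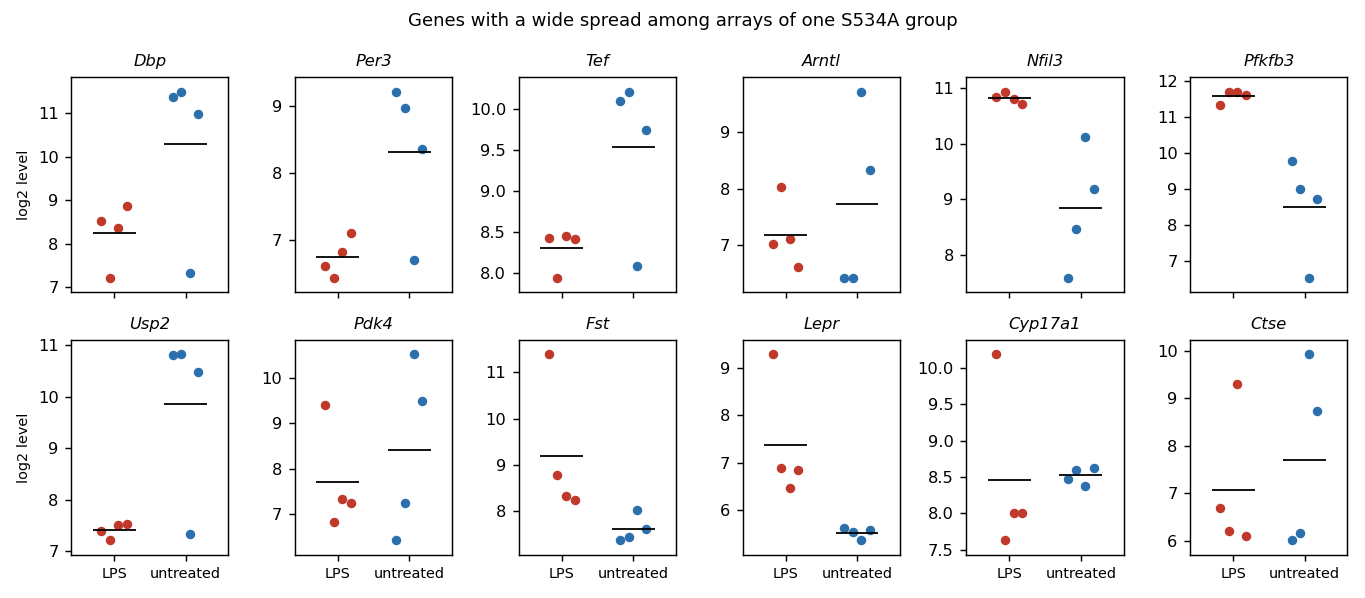
Panels as in the plot of levels by array, for 12 genes with a wide spread within a group, of which Usp2, Fst, Cyp17a1 and Ctse were chosen after their values were seen. Dbp, Per3, Tef and Usp2 are low on untreated array 3, and Fst, Lepr and Cyp17a1 are high on LPS array 1. The rise of Fst was 1.57 with all arrays, 0.84 without LPS array 1 and, no longer called, 1.49 without untreated array 1.

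Markers of cell types moved in the same liver RNA, and in bulk tissue fewer cells of a type and less RNA per cell cannot be told apart. Neutrophil markers rose in 13 of 15 cases, and their summed linear level lay between 2617 and 3504 in the S534A LPS arrays and between 797 and 864 in the untreated S534A arrays. S100a9, a calprotectin subunit, was at 10.02, 9.42, 9.30 and 9.65 in the S534A LPS arrays, against 6.57, 6.65, 6.79 and 6.88 in the untreated S534A arrays (2.87 ± 0.18, 7.34-fold), and Ly6g, which mature neutrophils carry, at 5.61, 5.33, 5.43 and 5.96 in the S534A LPS arrays, against 4.85, 4.79, 4.90 and 4.90 in the untreated S534A arrays (0.72 ± 0.15). The levels of Ly6g lay low on the scale in both groups, below the lowest array median of 6.25. With a filter at the array median 11 neutrophil markers rose. The granule gene Mpo (0.12 ± 0.08) of immature neutrophils was not called. Of 6 monocyte markers 3 rose, among them Plac8 (2.62 ± 0.15), and Lyz2 fell (−0.76 ± 0.11). Neutrophil markers share members with the interleukin-1 list, and their part in the rises of chemokine and receptor genes was not tested.

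Kupffer cell markers fell in 11 of 15 cases, with a summed linear level of 7187 to 8918 in the S534A LPS arrays and 11852 to 14796 in the untreated S534A arrays. Vsig4, a complement receptor, was at 8.26, 7.96, 8.86 and 8.71 in the S534A LPS arrays, against 11.04, 10.53, 11.29 and 11.03 in the untreated S534A arrays (−2.52 ± 0.20, 5.75-fold), the mannose receptor Mrc1 (−1.90 ± 0.11) and Clec4f, restricted to Kupffer cells (−1.25 ± 0.10), fell, while the scavenger receptor Marco was at 7.73, 7.34, 7.06 and 7.17 in the S534A LPS arrays, against 6.21, 6.16, 6.25 and 6.44 in the untreated S534A arrays (1.06 ± 0.14) and Timd4 (−0.38 ± 0.16) was not called. Timd4 was called lower without untreated array 2 (−0.51), with median-centred arrays (−0.47), with array quality weights (−0.32) and with the S534A arrays fitted alone (−0.38). Class II genes and the C1q chains fell beside these markers, and the part of the cell type in those falls was not tested.

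Sinusoidal endothelial markers fell in 15 of 17 cases (list median −1.38), with a summed linear level of 5628 to 7183 in the S534A LPS arrays and 15624 to 16947 in the untreated S534A arrays. Kdr, the main VEGF receptor, was at 6.01, 6.33, 6.48 and 6.46 in the S534A LPS arrays, against 9.66, 9.51, 9.82 and 9.78 in the untreated S534A arrays, 3.03 units apart (−3.37 ± 0.12, 10.3-fold, adjusted p = 6.76e-13). Ptprb (−2.60 ± 0.13), the angiopoietin receptor Tek (−2.35 ± 0.13), Clec4g (−2.13 ± 0.12) and Stab2 (−1.38 ± 0.14) fell, and the hyaluronan receptor Lyve1 was at 10.09, 9.93, 10.00 and 10.39 in the S534A LPS arrays, against 9.05, 8.57, 9.10 and 9.01 in the untreated S534A arrays (1.17 ± 0.16). The endothelial adhesion genes Icam1 (2.85 ± 0.09), Vcam1 (2.07 ± 0.16) and Sele (1.85 ± 0.13) rose, among 12 of 18 adhesion genes, and Pecam1 fell (−0.92 ± 0.09). F8, Wnt2, Rspo3 and Gata4 (−1.03 ± 0.13), which these endothelial cells express, fell beside the markers, and the part of the cell type was not tested.

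Stellate cell markers fell in 12 of 17 cases, Lrat, which stores retinol, at 7.36, 6.89, 7.14 and 7.33 in the S534A LPS arrays, against 9.53, 9.27, 9.16 and 9.28 in the untreated S534A arrays (−2.13 ± 0.18), and Hgf (−1.5 ± 0.13), a hepatocyte growth signal, while the collagen Col1a1 (0.18 ± 0.12) was not called. The summed linear level of that list was 7982 to 9355 in the S534A LPS arrays and 12296 to 14358 in the untreated S534A arrays. Of the 11 hepatocyte markers 1 rose, Fgb, and 1 fell, Asgr1 (−0.26 ± 0.07), or 5 with median-centred arrays. T and NK cell markers gave 1 of 9 higher, Gzmb (1.13 ± 0.15), B cell markers 3 of 5 lower, cholangiocyte markers 1 of 5 higher, Sox9 (1.25 ± 0.23), and 1 lower (0 without LPS array 1, LPS array 2, untreated array 1, untreated array 3 or untreated array 4), erythroid and platelet markers 5 of 6 higher, and pancreas, gut and fat markers 1 of 9 higher, Fabp4 (0.95 ± 0.23), and 1 lower, Lgals4 (−1.03 ± 0.21). Rises made up 11.1% of the T and NK list and of the pancreas, gut and fat list, beside 14.2% of all genes tested.

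Other large falls belonged to no single pathway. Kcnk5, a potassium channel, was at 6.07, 5.98, 6.07 and 5.87 in the S534A LPS arrays, against 10.07, 10.85, 8.95 and 10.41 in the untreated S534A arrays (−4.07 ± 0.34, 16.8-fold), and Arrdc3, an arrestin-domain protein, at 6.70, 6.92, 6.75 and 7.05 in the S534A LPS arrays, against 10.25, 10.86, 11.31 and 10.91 in the untreated S534A arrays (−3.98 ± 0.29, 15.8-fold). The highest LPS array lay 2.88 units below the lowest untreated array for Kcnk5 and 3.20 units for Arrdc3. The changes were −3.39 ± 0.15 for Sucnr1, the succinate receptor, −3.30 ± 0.16 for Hykk, a hydroxylysine kinase, −3.03 ± 0.14 for Fam13a, −2.99 ± 0.45 for the activin subunit Inhbe, −2.90 ± 0.29 for Nrep, −2.85 ± 0.22 for the antiproliferative Tob1 and −2.83 ± 0.16 for the secretory kinase Fam20c. These 9 genes were named by a rule that asked for groups without overlap, so their lack of overlap is no separate result. The same rule covered the largest rises described above, among them Saa1, Ifit2, A2m, Slfn4, Cxcl10, Gbp5 and Ccl3. It also covered the large falls of Cyp7a1, Kdr, G6pc, Slc40a1, Hjv and Nr1i3. For all of these genes too, the lack of overlap is no separate result.

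The series title asks how the substitution affects the response to LPS, and the WT arrays allow that test. With the LPS effect in S534A set against that in WT, 0 of the 15908 genes passed (0%, limma interaction), with 766 at an unadjusted p under 0.05 and the smallest adjusted p at 0.875. With array quality weights 3 genes passed, Igfbp1 (−1.88, adjusted p = 0.00772), Polr2i (0.84, adjusted p = 0.00646) and Snora73a (1.02, adjusted p = 0.0121). Single WT arrays also moved the count: without WT LPS array 2 Polr2i passed (0.79, adjusted p = 0.0198), without WT untreated array 2 Nr4a1, an immediate early receptor (−1.79, adjusted p = 0.0315), and without WT untreated array 4 Snora73a (1.05, adjusted p = 0.0246) and Snora73b (1.05, adjusted p = 0.0269). Of the 7225 genes called in S534A 5980 were called the same way in WT, which is 82.8% of the S534A calls and 83.8% of the 7139 WT calls among the 15908 genes. Another 2 were called in opposite directions, and both sets of calls rest on the shared estimate of the spread. Among the 1357 S534A calls of at least 2-fold 1334 were called the same way in WT. Across genes, which are not independent replicates, the 2 sets of changes had a Pearson r of 0.964 and, over genes called in both, a slope of 0.994. The median 95% interval of an interaction, unadjusted, spans 0.30 either way. With 4 arrays per group differences as large as that of Igfbp1 (−1.63 ± 0.37) did not pass after adjustment over the 15908 genes.

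The 5 genes of lowest interaction p were Polr2i, Gstp1, Snora73a, Cth and Abhd17a, and none passed (adjusted p = 0.875 each). Polr2i, an RNA polymerase II subunit, changed by −0.64 ± 0.10 in S534A and by −1.32 ± 0.10 in WT (difference 0.68 ± 0.14). Gstp1, a glutathione transferase, rose in S534A (0.20 ± 0.07) and changed by −0.28 ± 0.07 in WT. The S534A call was lost without LPS array 2 or 3 or untreated array 1, 2 or 3 (0.16 to 0.21). Snora73a, a small nucleolar RNA, was at 9.58, 9.49, 9.53 and 9.76 in the S534A LPS arrays, against 8.78, 8.74, 8.65 and 8.61 in the untreated S534A arrays, and its changes were 0.90 ± 0.14 in S534A and 0.01 ± 0.14 in WT. Cth, cystathionine gamma-lyase, changed by −0.46 ± 0.07 in S534A and −0.03 ± 0.07 in WT, and the depalmitoylase Abhd17a by −0.20 ± 0.07 in S534A and −0.63 ± 0.07 in WT. The S534A call of Abhd17a was lost without LPS array 3 or untreated array 1 or 4 (−0.20 to −0.19). Igfbp1 had one of the largest differences, 1.24 ± 0.26 in S534A against 2.87 ± 0.26 in WT (difference −1.63 ± 0.37, unadjusted p = 0.000477, limma adjusted p = 0.875). It was at 12.75, 11.90, 12.90 and 12.63 in the WT LPS arrays, against 9.53, 10.52, 9.60 and 9.06 in the untreated WT arrays, so the S534A and WT arrays overlap after LPS and not without treatment. Saa1 rose by 6.26 ± 0.37 in S534A and 5.20 ± 0.37 in WT, and Cyp7a1 changed by −5.99 ± 0.40 in S534A and −5.01 ± 0.40 in WT, differences that were not called (adjusted p = 0.951 and 0.951).

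**Figure D5:**
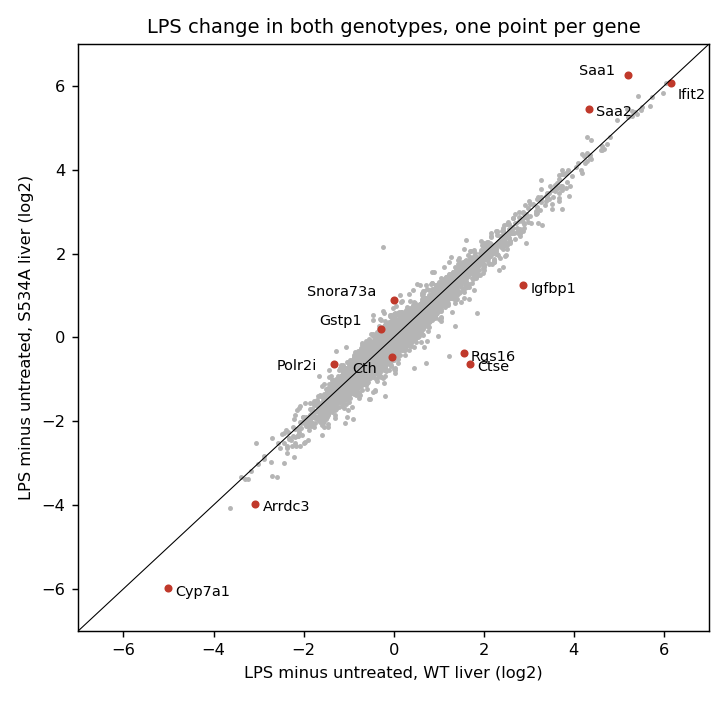
Each point is 1 of the 15908 genes, with the change in WT liver, LPS minus untreated (log2), on the horizontal axis and that in S534A liver on the vertical axis. The line marks equal changes. Points follow the line from Cyp7a1 to Saa1 and Ifit2, and the genes named include Igfbp1 and Polr2i, whose differences were not called, and Ctse and Rgs16, chosen after their values were seen.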

How the data were processed

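RNA of 16 mouse livers was measured on whole-transcript arrays. RNA was column-purified and amplified and biotin-labelled with a WT expression kit, per the labels' protocols. The authors deposited log2 values per probe set, made by RMA per the submitters' processing notes (version and summary level not given in the sources used here). Of 35556 probe sets, 21789 carried 1 gene symbol, 1621 several and 12146 none, by GEO's platform annotation, and 21698 matched RefSeq's gene table. Probe sets above the 30th percentile of their array on at least 4 arrays were kept (26037), and the one with the highest mean stood for its gene, which left 15908 genes. Array medians ran from 6.25 to 6.42, and no 2 arrays were identical.

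Group means of the 16 arrays were fitted without a covariate in limma 3.58.1 (R 4.3.3; lmFit, contrasts.fit, eBayes), with 12 residual degrees of freedom and two-sided tests, adjusted by Benjamini-Hochberg over all genes at 0.05. The steps were tested on simulated data. With 4 arrays per group the median 95% interval of a change spans 0.21 either way. Genes named are Rela, the 15 largest non-overlapping rises and falls (no predicted genes or small RNAs), members of the lists and the 5 genes of lowest interaction p; exceptions chosen after their values were seen are said to be so (among them Usp2, Fst, Cyp17a1, Ctse and Rgs16). The members and lists were chosen with earlier results of these data known. No set test was run, and the shares of all genes tested are given in the report. Other filters, probe-set rules, scalings, spread estimates, call rules and single arrays left out were tried. Genes whose probe sets carry several symbols or none were not analysed here.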

Additional observations from a re-analysis of the deposited data

Results flagged for a closer look

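In 42 of 644 groups of 4 arrays examined, 2 for each gene named, the highest or lowest array lay far from the other 3, measured by its gap to the nearest array over the range of the group against Dixon's 95% critical value. Chance flags about 1 in 20 groups. The level and that of the nearest array are given for each gene. LPS array 1 lay above the other 3 for Btg2 (10.58, nearest 9.53), Cyp17a1 (10.19, nearest 8.01), Fst (11.39, nearest 8.78), Hk2 (8.15, nearest 7.56), Il1rn (12.11, nearest 11.12), Lepr (9.28, nearest 6.89), Lgals4 (6.71, nearest 6.49), Map3k8 (9.23, nearest 8.77) and Nr5a2 (10.97, nearest 10.76). LPS array 1 lay below the other 3 for Il6ra (10.32, nearest 10.58), Tfrc (6.25, nearest 6.71) and Thbd (7.05, nearest 8.0). LPS array 2 lay above the other 3 for Apcs (12.27, nearest 11.70), Hnf4a (12.74, nearest 12.57) and Lbp (12.93, nearest 12.78). LPS array 2 lay below the other 3 for Sult1b1 (8.22, nearest 8.58) and Tef (7.94, nearest 8.41). LPS array 3 lay below the other 3 for Psmb8 (9.58, nearest 9.80). Untreated array 1 lay above the other 3 for Ern1 (10.43, nearest 10.03), Irak1 (9.10, nearest 9.06), Rel (8.74, nearest 8.68) and Sult1c2 (7.86, nearest 7.62). Untreated array 1 lay below the other 3 for Cyp2b10 (8.32, nearest 9.05), G0s2 (7.93, nearest 8.94), Gpam (10.89, nearest 11.05), Hk2 (6.31, nearest 6.47) and Thbd (6.72, nearest 7.0). Untreated array 2 lay above the other 3 for Fabp4 (8.17, nearest 7.54) and Nr1i2 (10.25, nearest 10.08). Untreated array 2 lay below the other 3 for Bcl2l1 (8.0, nearest 8.07), C1qa (8.84, nearest 9.19), Nfkbiz (6.99, nearest 7.22), Osmr (7.13, nearest 7.34) and Pecam1 (7.98, nearest 8.10). Untreated array 3 lay above the other 3 for Psmb8 (8.06, nearest 7.94) and Tnip1 (7.05, nearest 6.78). Untreated array 3 lay below the other 3 for Dbp (7.33, nearest 10.98), Hamp (12.89, nearest 13.36), Hnf4a (12.25, nearest 12.49), Sod2 (12.09, nearest 12.25) and Usp2 (7.33, nearest 10.47). Untreated array 4 lay above the other 3 for Cxcl11 (7.54, nearest 7.40).

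Probe sets with several gene symbols or none, which entered no comparison, also responded. Of 1052 kept probe sets with several symbols 148 were higher after LPS in S534A liver and 252 lower, 20 and 1 of them by at least 4-fold. Of 7635 with no symbol 1639 were higher and 856 lower, 159 and 6 of them by at least 4-fold.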

How the results depend on the processing

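The number of genes changed by LPS in S534A liver stayed within 1.5 times of 7225 under all alternatives tried but 1, which also asked for a change of at least 1.5-fold and left 3286 genes, 1156 higher and 2130 lower. It ran from 6611 to 6950 when 1 S534A array was left out. Array quality weights, which ran from 0.25 to 3.47, gave 9267 genes, 3399 higher and 5868 lower. Counts were 7317 with no filter, 6855 with a filter at the array median, 7226 with averaged probe sets, 7934 with median-centred arrays, 7565 after a second quantile normalization, 7232 with a trended and robust spread, 8040 with the S534A arrays alone and 5691 at a threshold of 0.01.

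Replicate numbers come from the sample titles, which do not say that same-numbered arrays are pairs. The deviations of same-numbered LPS and untreated S534A arrays correlated at 0.228, −0.086, −0.042 and 0.137, and those of differently numbered arrays at −0.208 to 0.189. Such correlations cannot settle whether the arrays were paired. With the replicate block 7092 genes were called, 2203 higher and 4889 lower.

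The count of 0 interactions became 3 with array quality weights (Igfbp1 −1.88, Polr2i 0.84 and Snora73a 1.02), 1 without WT LPS array 2 (Polr2i 0.79) or WT untreated array 2 (Nr4a1 −1.79) and 2 without WT untreated array 4 (Snora73a 1.05 and Snora73b 1.05). The adjusted p of these lay between 0.00646 and 0.0315, the arrays named have the lowest weights (0.25, 0.56 and 0.26), and the cause was not tested.

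Of 322 genes named, 279 were called, 37 of these lost the call in at least 1 alternative, 19 others gained one and 11 changed sign, all of them uncalled with all arrays. With median-centred arrays these were Alb (−0.07), B2m (−0.08), F2 (−0.08), Glul (−0.08) and Pck1 (−0.03), and after the second quantile normalization B2m (−0.02). With 1 S534A array left out the values ran as follows: Alb 0.00 to 0.05, Arntl −0.97 to 0.13, B2m −0.02 to 0.05, Cpt1a 0.00 to 0.15, Ctse −1.37 to 0.11, Cyp17a1 −0.64 to 0.21, F2 0.00 to 0.04, Glul −0.02 to 0.10, Rgs16 −0.80 to 0.07 and Tab2 −0.11 to 0.08. Median centring called Cps1, Cyp27a1, Cyp2e1, Map3k7, Nr3c1, Otc, Rbp4, Scd1, Serpinc1, Timd4 and Ttr lower. Calls lost under it were Hamp (0.27), Gstp1 (0.10) and Rps20 (0.13). The second quantile normalization ended those of Abhd17a (−0.13), Gstp1 (0.17) and Srebf2 (−0.24), and the replicate block those of Gstp1 (0.20) and Srebf2 (−0.29).

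Probe sets of 1 gene could disagree. Those of Mid1ip1 gave −2.26 and 0.22, the second not called, and their average −1.02. Those of Fga gave 1.49 to 2.61, Nlrc5 1.37 to 3.45, Birc2 0.97 to 2.26, Irf1 0.66 to 1.79 and Socs3 1.78 to 2.87, and the average for Nlrc5 was 2.59. Signal over background and saturation were not assessed.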

Other observations

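The following genes outside the lists were chosen after their values were seen. Cd274, which encodes the checkpoint ligand PD-L1, was at 11.91, 11.81, 11.96 and 11.94 in the S534A LPS arrays, against 7.18, 7.13, 7.18 and 7.0 in the untreated S534A arrays. The groups lay 4.63 units apart (4.78 ± 0.09, 27.5-fold, limma adjusted p = 3.74e-16). Usp18, which removes ISG15 from proteins and dampens interferon receptor signals, was at 13.44, 13.48, 13.52 and 13.53 in the S534A LPS arrays, against 9.32, 9.35, 9.30 and 9.40 in the untreated S534A arrays (4.15 ± 0.08). Acod1, which makes itaconate in macrophages, rose by 4.22 ± 0.19, Ch25h, which makes an antiviral oxysterol, by 3.36 ± 0.19, the uridine phosphorylase Upp1 by 3.75 ± 0.15 and the citrate carrier Slc13a5 by 3.45 ± 0.22. The collagenase Mmp13 (3.93 ± 0.13), the niacin receptor Hcar2 (4.00 ± 0.12), the NF-kB adaptor Tifa (4.16 ± 0.11) and the interleukin-17 receptor Il17ra (3.09 ± 0.14) rose as well. Among falls were the adhesion receptor Adgrl4 of endothelium (−2.60 ± 0.12), the thiamine carrier Slc19a2 (−2.32 ± 0.13), the tight-junction gene Cldn1 (−2.38 ± 0.46) and the lipogenic cofactor Mid1ip1 (−2.26 ± 0.25, with a second probe set at 0.22 and not called).

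A few genes varied more between arrays of 1 group than between groups. The aspartic protease Ctse was at 6.70, 6.21, 9.31 and 6.10 in the S534A LPS arrays, against 6.01, 6.17, 9.93 and 8.73 in the untreated S534A arrays, with LPS array 3 and untreated arrays 3 and 4 above the rest. Pdk4, which restrains glucose oxidation, was at 9.41, 6.82, 7.32 and 7.24 in the S534A LPS arrays, against 6.41, 7.24, 10.53 and 9.49 in the untreated S534A arrays, and both groups span more than 2 log2 units. The steroid hydroxylase Cyp17a1 was at 10.19, 7.63, 8.01 and 8.0 in the S534A LPS arrays, against 8.48, 8.60, 8.38 and 8.63 in the untreated S534A arrays, high on LPS array 1 alone. None of the 3 was called (adjusted p = 0.679, 0.522 and 0.917). Snord118, a small nucleolar RNA, was also chosen after its values were seen. Unlike those 3 genes it was called, and its groups did not overlap. It was at 10.64, 10.11, 8.88 and 10.48 in the S534A LPS arrays, against 7.77, 8.21, 7.64 and 7.88 in the untreated S534A arrays (2.15 ± 0.45, limma adjusted p = 0.000723). Its change in WT was −0.24 ± 0.45, and the difference was not called (unadjusted p = 0.00155, limma adjusted p = 0.925).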
